A study of Bos taurus and Bos frontalis with 6 samples.

Results

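The genes described here were CAPN1 (ENSBTAG00000010230) and CAST (ENSBTAG00000000874), chosen by identifier as the protease and the inhibitor best known from work on meat tenderness. They were 2 of 27270 genes in the count table, and both passed the filter on low counts that left 14112 genes for testing. The study sequenced RNA of the longissimus dorsi, a back muscle sold as loin, in 3 samples of Gayal (Bos frontalis) and 3 samples of Banna cattle (Bos taurus). All 6 samples carry the label 3.5 ± 0.5 years of age, and no treatment or modified allele is named in the labels. The sources used here give neither sex nor relatedness of the animals. A deposited sheet lists a batch letter and a fibre class per library. Batch A held Banna replicates 1 and 2 and Gayal replicate 1, and batch B held Banna replicate 3 and Gayal replicates 2 and 3. Fibre class was coarse in all Banna and fine in all Gayal libraries, so it cannot be told apart from species.

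CAPN1 encodes the catalytic subunit of µ-calpain, a cysteine protease that is switched on by calcium and is active in the muscle cytosol. CAST encodes calpastatin, a protein inhibitor that binds µ-calpain and m-calpain when calcium is present and blocks their active site. After slaughter, µ-calpain cuts proteins that hold the myofibrils together, and high calpastatin activity is known to go with slower tenderization. Inhibitor and protease are therefore often considered together, and the ratio of CAST to CAPN1 is given for each library. The values below are RNA levels, not enzyme activity, protein or shear force. In whole muscle, fewer cells of a type and less RNA per cell cannot be told apart.

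The libraries held 53979857 to 90313051 estimated counts each, and the lowest total belonged to Gayal replicate 1. Low counts recurred at a fixed spacing, called the step, which was 3.31 to 3.33 counts in batch A and 4 in batch B. Totals of the batches were thus counted in steps of different size. Counting intervals are based on counts divided by the step. These intervals are at 95% and cover counting error only. The sources used here do not say whether replicates were separate animals, so p-values measure the spread between these samples. The tissue label could not be checked against marker genes, because the files pair no identifier with a symbol.

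CAPN1, the protease, was at a similar level in 5 of the 6 libraries and lower in Gayal replicate 1. Levels are TMM-scaled CPM, counts relative to a library total that was scaled for composition. CAPN1 was at 109 CPM in Banna replicate 1, 97.8 CPM in replicate 2 and 110 CPM in replicate 3. It was at 59.99 CPM in Gayal replicate 1, 105 CPM in replicate 2 and 100.5 CPM in replicate 3. On this scale the species overlapped, since Gayal replicates 2 and 3 lay within the Banna range of 97.8 to 110 CPM and Gayal replicate 1 lay below it. The overlap of CAPN1 depended on the scaling. With upper-quartile factors every Gayal library, at 64.0 to 99.1 CPM, was below every Banna library, at 103 to 112 CPM. Under those factors 10.1% of all genes tested separated the species in either direction. With library totals the Gayal range of 62.7 to 111 CPM extended past both ends of the Banna range of 93.2 to 107 CPM. On the TMM scale, the CAPN1 counting interval of Gayal replicate 1 was 56.4 to 63.8 CPM. It reached none of the other libraries' intervals, the lowest of which began at 94.2 CPM. That library was also the one with the lowest total, and the part of depth in its CAPN1 level was not tested.

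The mean CAPN1 level in Gayal was 88.5 ± 24.8 CPM, and that in Banna was 105 ± 6.59 CPM (SD, n = 3 each). With species and batch as terms, the log2 difference of Gayal minus Banna was -0.44 (SE 0.285), with a 95% interval of -1.12 to 0.24. CAPN1 did not pass (edgeR quasi-likelihood adjusted p = 0.754). Without Gayal replicate 1 the log2 difference of CAPN1 was -0.10 (edgeR adjusted p = 0.993), and without Banna replicate 3 it was -0.79 (edgeR adjusted p = 0.647).

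CAST, the inhibitor, varied between libraries in a different way, with high levels in Banna replicate 3 and Gayal replicate 2. CAST was at 65.0 CPM in Banna replicate 1, 65.2 CPM in replicate 2 and 116 CPM in replicate 3. It was at 64.3 CPM in Gayal replicate 1, 105 CPM in replicate 2 and 54.2 CPM in replicate 3. Both species thus had a library over 100 CPM, and the ranges of the species overlapped. Neither high library came from batch A, but batch B also held the lowest one, Gayal replicate 3. The counting intervals of the high libraries, 111 to 120 CPM in Banna and 101 to 110 CPM in Gayal, were apart from that of Gayal replicate 3 at 51.1 to 57.5 CPM.

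**Figure D1:**
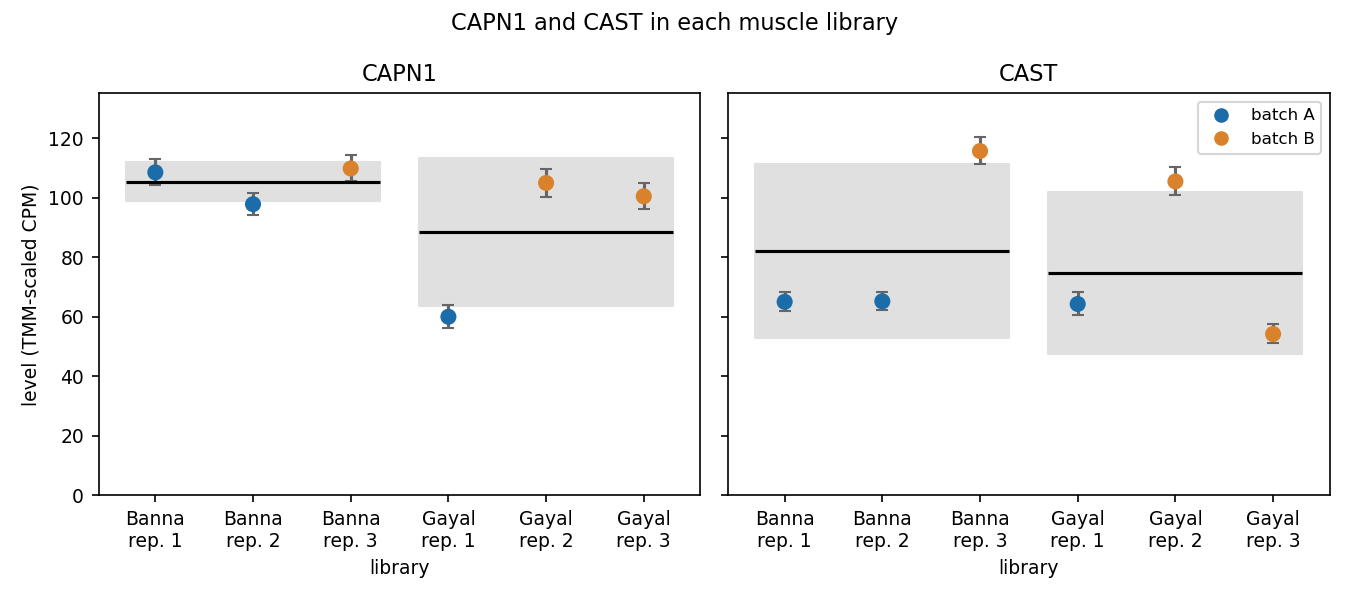
TMM-scaled CPM of CAPN1 (left) and CAST (right) in each of the 6 libraries, coloured by batch, with 95% exact Poisson intervals for counting error; black lines are species means and grey bands ± 1 SD (n = 3). CAPN1 is low only in Gayal replicate 1, at 59.99 CPM, while CAST is high in Banna replicate 3 and Gayal replicate 2, at 116 and 105 CPM.

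The mean CAST level in Gayal was 74.6 ± 27.2 CPM, and that in Banna was 82.0 ± 29.2 CPM (SD, n = 3 each), a gap smaller than the spread within either species. The log2 difference of Gayal minus Banna with species and batch as terms was -0.28 (SE 0.331), with a 95% interval of -1.06 to 0.51. CAST did not pass (edgeR quasi-likelihood adjusted p = 0.876). Leaving out Gayal replicate 3 moved the CAST difference to -0.06 (edgeR adjusted p = 0.985) and leaving out Banna replicate 3 moved it to -0.02 (edgeR adjusted p = 0.995). In the other direction, it was -0.46 when Gayal replicate 2 was dropped (edgeR adjusted p = 0.907) and -0.54 when Gayal replicate 1 was dropped (edgeR adjusted p = 0.893).

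So 0 of the 2 genes passed the test of species in edgeR, and 0.0425% of all genes tested did. DESeq2 with the same terms called 3.46% of the genes it gave an adjusted p, and limma-voom called 0.0921%. In those fits both genes missed the threshold, with adjusted p of 0.799 and 0.691 for CAPN1 and 0.989 and 0.835 for CAST. Before adjustment, 1123 genes were under 0.05 in edgeR, and neither CAPN1 nor CAST was among them. Over all genes tested, the median size of the log2 difference between species was 0.396, so CAPN1 lay slightly above and CAST below the middle of the table. TMM-scaled levels of neither gene separated the species, which 10.4% of all genes tested did. With upper-quartile factors CAPN1 did separate them, as did 10.1% of all genes tested. CAST did not separate them under any of the 4 scalings. A miss of the threshold does not show equal levels: the intervals reach a decrease of over 1 on the log2 scale for both genes.

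**Figure D2:**
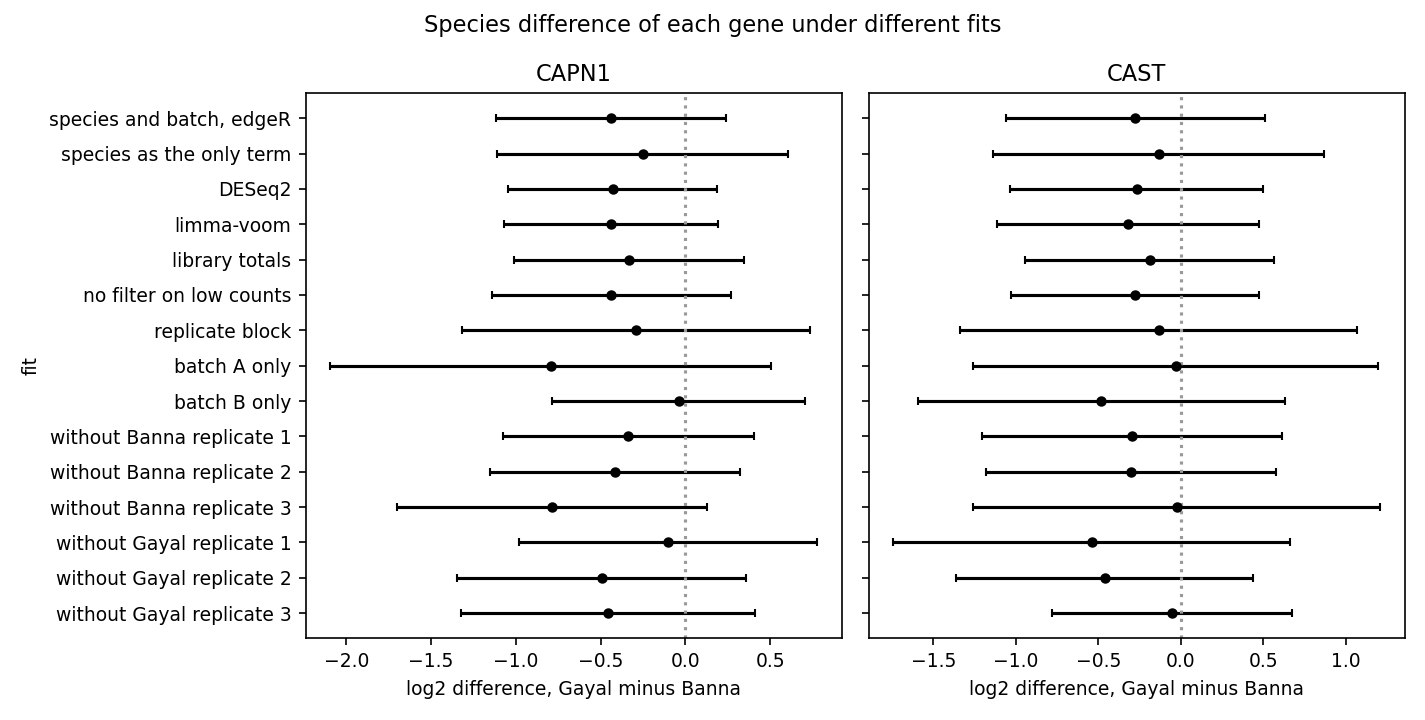
Log2 difference of Gayal minus Banna for CAPN1 (left) and CAST (right) with 95% intervals, in the edgeR fit with species and batch and under other fits, single batches and left-out libraries. Each point lies below 0 and each interval includes 0; the CAPN1 estimate moves towards 0 without Gayal replicate 1 (-0.10) and in batch B alone (-0.04).

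Within batches, the species ratio of the protease was farther from 1 in batch A and that of the inhibitor was farther from 1 in batch B. In batch A, CAPN1 was at 59.99 CPM in the single Gayal library and at a mean of 103 CPM in the 2 Banna libraries, a ratio of 0.582. In batch B, CAPN1 was at a mean of 103 CPM in 2 Gayal libraries and at 110 CPM in the Banna library, a ratio of 0.935. CAST showed the opposite: its ratio of Gayal to Banna was 0.987 in batch A and 0.69 in batch B. Each of these comparisons has a single library on 1 side. For CAST in batch B the 2 Gayal libraries were also far apart, at 105 CPM in replicate 2 and 54.2 CPM in replicate 3, beside 116 CPM in the Banna library. A test of whether the species difference changed with batch gave a log2 change of 0.69 for CAPN1 (SE 0.508, edgeR adjusted p = 0.854) and -0.52 for CAST (SE 0.687, edgeR adjusted p = 0.926). That test called 0 of 14112 genes in edgeR, and 931 had an unadjusted p below 0.05, so a change of either gene's species difference with batch was not shown.

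Neither gene passed the test of batch, and for both the levels of the batches overlapped, whereas 43.2% of genes tested had no overlap between batches. In the same edgeR fit, 14.6% of genes tested differed between batches, and 0 of the 2 genes were among them. That share rested on having all libraries: it came from 2064 genes, which became 0 when Banna replicate 3 or any 1 Gayal library was left out, 1258 without Banna replicate 1 and 1205 without Banna replicate 2. CAPN1 was higher in batch B by a log2 of 0.43 (SE 0.285, 95% interval -0.24 to 1.11, edgeR adjusted p = 0.326). CAST was higher in batch B by a log2 of 0.57 (SE 0.331, 95% interval -0.22 to 1.36, edgeR adjusted p = 0.27). The median size of the batch difference over all genes tested was a log2 of 0.829, and both values were below it. DESeq2 with the same terms called 25.3% of genes between batches and again neither gene, with adjusted p of 0.364 for CAPN1 and 0.323 for CAST. Without Gayal replicate 3 the CAST batch difference rose to 0.83 (95% interval 0.11 to 1.54, which leaves out 0, edgeR adjusted p = 0.133). It was 0.84 without Gayal replicate 1 (edgeR adjusted p = 0.354) and 0.32 without Banna replicate 3 (edgeR adjusted p = 0.732). The batch difference of CAPN1 fell to 0.10 without Gayal replicate 1 (edgeR adjusted p = 0.896).

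The ratio of CAST to CAPN1 counts fell in a lower and a higher range, and each species had libraries in both. Scaling of the library totals cancels in this ratio. Transcript lengths were not used, so a value of 1 marks equal counts and not equal numbers of molecules, and the ratio is read only between libraries. In Banna the ratio was 0.599 in replicate 1 (95% exact binomial interval 0.562 to 0.639), 0.666 in replicate 2 (0.628 to 0.707) and 1.05 in replicate 3 (0.996 to 1.11). In Gayal it was 1.07 in replicate 1 (0.983 to 1.17), 1.005 in replicate 2 (0.944 to 1.07) and 0.539 in replicate 3 (0.501 to 0.581).

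The 3 high ratios had overlapping intervals. Among the low ratios, the intervals of Gayal replicate 3 and Banna replicate 2 were apart, so these libraries differed by more than counting error, while that of Banna replicate 1 overlapped both. The lowest of the high ratios was 1.51-fold above the highest of the 3 low ratios. From the lowest to the highest library the ratio changed 1.99-fold. The low ratios came from Banna replicates 1 and 2 and Gayal replicate 3, and the high ones from Banna replicate 3 and Gayal replicates 1 and 2. The high ratios were reached by different genes: in Gayal replicate 1 CAPN1 was low, at 59.99 CPM, with CAST at 64.3 CPM. In Banna replicate 3 and Gayal replicate 2 CAST was high, at 116 and 105 CPM, with CAPN1 at 110 and 105 CPM.

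**Figure D3:**
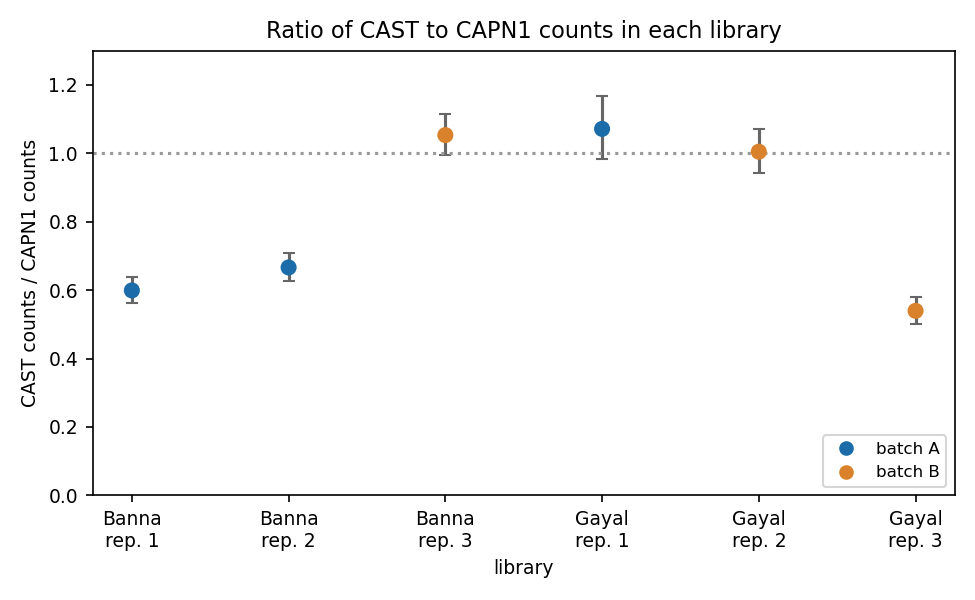
Ratio of CAST to CAPN1 estimated counts in each library, coloured by batch, with 95% exact binomial intervals for counting error; the dotted line marks equal counts, not equal molecules. Banna replicates 1 and 2 and Gayal replicate 3 lie between 0.539 and 0.666, and the other 3 libraries between 1.005 and 1.07.

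The mean ratio in Gayal was 0.872 ± 0.29, and that in Banna was 0.773 ± 0.245 (SD, n = 3 each). The species overlapped. The log2 difference of Gayal minus Banna was 0.16 (two-sided exact permutation p = 0.9 over the 6 libraries). The smallest p that 3 libraries against 3 can give is 0.1. Leaving out Banna replicate 1 turned the log2 difference to -0.006, and leaving out Gayal replicate 1 turned it to -0.025. It rose to 0.40 when Banna replicate 3 was dropped and to 0.47 when Gayal replicate 3 was dropped. The values were 0.07 for a fit lacking Banna replicate 2 and 0.02 for a fit lacking Gayal replicate 2. In batch A the Gayal ratio was above both Banna ratios, by a mean log2 of 0.76. In batch B Gayal replicate 2, at 1.005, was only slightly below Banna replicate 3, at 1.05, while Gayal replicate 3 was at 0.539. The mean log2 difference in batch B was -0.52. The mean of these within-batch differences was 0.12 (exact permutation p = 1 with species permuted within batches, where the smallest possible p is 0.111). Between batches the mean ratio was 0.779 ± 0.256 in A and 0.866 ± 0.284 in B (SD, n = 3 each), and the log2 ratios gave a two-sided exact permutation p of 1.

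Over the 6 libraries, CAPN1 and CAST varied less than most genes with a mean level within 2-fold of theirs. The SD of log2 CPM was 0.331 for CAPN1, against a median of 0.581 for 1397 such genes, of which 14.5% had a smaller SD. For CAST the SD was 0.444, against a median of 0.578 for 1643 such genes, of which 32.1% had a smaller SD. The highest library was 1.83-fold above the lowest for CAPN1 and 2.13-fold for CAST, where the medians of these genes were 2.85-fold and 2.83-fold. After species and batch were fitted, the order changed for CAST: its residual SD was 0.439, and 63.8% of its comparison genes had a smaller one. For CAPN1 the residual SD was 0.237, and 25.7% were smaller.

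**Figure D4:**
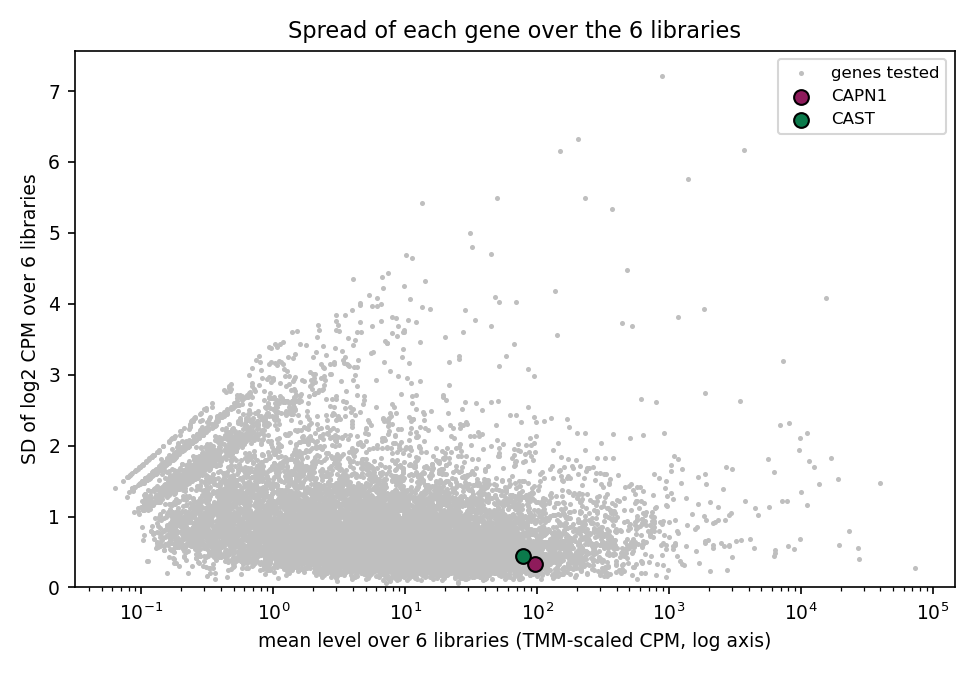
SD of log2 CPM over the 6 libraries against mean level (TMM-scaled CPM, log axis) for all 14112 genes tested, in grey, with CAPN1 and CAST marked. CAPN1 (SD 0.331) and CAST (SD 0.444) lie in the lower part of the cloud at their levels.

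The genes most like CAPN1 and CAST over the libraries were sought among 7656 other genes with a mean of at least 5 CPM, by Pearson r of log2 CPM over the 6 libraries. These r values describe 6 points that share libraries and batches, and have no test. For CAPN1 the highest were ENSBTAG00000007128 (r = 0.99) and ENSBTAG00000016951 (r = 0.979), and 80 genes had an r above 0.9. Both were lowest in Gayal replicate 1, as CAPN1 was. ENSBTAG00000007128 was at 14.3 CPM in that library and at 22.5 to 27.4 CPM in the others, a range close to that of CAPN1 in fold. ENSBTAG00000016951 was at 5.23 CPM there and at 14.1 to 23.9 CPM elsewhere.

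For CAST the highest were ENSBTAG00000008827 (r = 0.984) and ENSBTAG00000015702 (r = 0.981), and 24 genes had an r above 0.9. These genes swung more widely than CAST did. ENSBTAG00000008827 was at 40.4 CPM in Banna replicate 3 and 29.7 CPM in Gayal replicate 2, and at 2.92 to 4.98 CPM in the other 4 libraries. ENSBTAG00000015702 was at 85.8 CPM in Banna replicate 3 and 48.1 CPM in Gayal replicate 2, and at 14.7 to 20.5 CPM in the others. The files do not pair these identifiers with gene names.

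**Figure D5:**
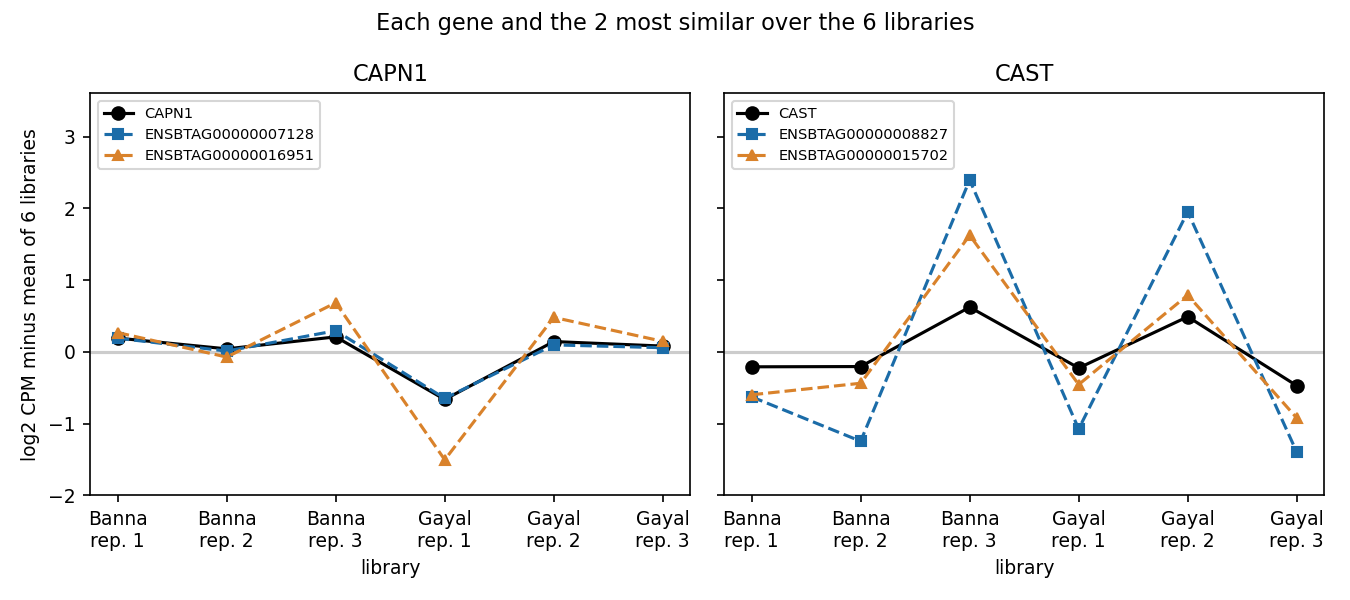
Log2 CPM minus its mean over the 6 libraries for CAPN1 (left) and CAST (right), each with the 2 genes of highest Pearson r; lines only join the points of a gene and give no order of libraries. On the left all 3 genes are lowest in Gayal replicate 1, and on the right all 3 are highest in Banna replicate 3 and next highest in Gayal replicate 2.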

How the data were processed

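The deposited table holds estimated counts per Ensembl cattle gene and library, not scaled to a common library total. This unit was read from the low values (up to 60), which recur at a fixed spacing, the step, rather than at every whole number. HISAT2 2.0.4 and build ARS-UCD1.2 are named in the submitters' processing notes, and both species were thus read against a cattle genome. A species difference in how well a gene's reads were placed cannot be told apart from a difference in RNA level. It would not cancel in the ratio of CAST to CAPN1, and it was not tested. Annotation, counting program and strand setting: not given in the sources used here. Reads shared between genes or transcripts could have been divided, and the RefSeq table of ARS-UCD2.0 lists 3 transcripts for CAPN1 and 16 for CAST. It matched 0 of the identifiers, so the symbols CAPN1 and CAST come with the choice of members, and the lists of related genes and markers could not be tested. No sequence is printed.

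Counts were left as whole numbers and fitted over all genes in edgeR 4.0.16 (R 4.3.3) with TMM factors, filterByExpr, species and batch as terms and a robust quasi-likelihood F test, which left 3 residual degrees of freedom. Adjusted p is the Benjamini-Hochberg value over all genes tested, with a threshold of 0.05. SE is the log2 difference divided by the square root of F. Log2 CPM used a prior count of 2. The fit was also run on simulated counts, with planted species differences larger than those estimated here and no batch effect. That run does not cover differences as small as those of CAPN1 and CAST. Ratios were compared with exact permutation tests. Counting intervals are exact Poisson or binomial intervals on counts divided by the step. As alternatives, DESeq2 1.42.0 and voom from limma 3.58.1 were run, with other scalings and filters, counts divided by the step, a replicate block, single batches and each library left out in turn. The genes named are CAPN1, CAST and the 2 genes most like each. The members, lists and tests were chosen with earlier results of these data known, and the assumed unit was read counts.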

Additional observations from a re-analysis of the deposited data

Results flagged for a closer look

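The ratio of CAST to CAPN1 differed between the species in opposite directions in the batches. In batch A the log2 ratio was higher in the Gayal library than in both Banna libraries, by a mean of 0.76, and in batch B it was lower in both Gayal libraries than in the Banna library, with a mean difference of -0.52. The difference between these values was -1.28, with p = 0.222 in an exact permutation test of species within batches, whose smallest possible p is 0.111. Each batch has a single library of 1 species, Gayal replicate 1 in batch A and Banna replicate 3 in batch B, so each value rests on that library. The value in batch B also came mostly from Gayal replicate 3, at a log2 ratio of -0.89. Gayal replicate 2, at 0.007, was close to Banna replicate 3, at 0.075, and the counting intervals of these ratios overlapped.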

How the results depend on the processing

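No species or batch difference of CAPN1 or CAST passed the threshold in the alternative fits, and all kept their direction. These fits gave 70 estimates, 40 of species and 30 of batch, since 1 fit gives values for both genes and often both terms. All reuse the same libraries. The lowest adjusted p, both from edgeR, was 0.647 for species and 0.133 for batch. With a library left out, the log2 species difference ran from -0.79 to -0.10 for CAPN1 and from -0.54 to -0.02 for CAST. The log2 difference of the ratio ran from -0.025 to 0.47 over the fits lacking 1 library, with -0.006 for Banna replicate 1, and it was -0.52 in batch B only and 0.76 in batch A only.

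The number of genes called set the background. The 6 genes higher in Gayal became 0 with species as the only term, 0 with the replicate block, 430 with DESeq2, 88 with DESeq2 and species as the only term (chosen after seeing the data), 10 with limma-voom, 41 without a low-count filter, 3 for library totals, 129 in batch A only and between 0 and 7 over the fits lacking 1 library. The 0 lower genes became 228, 84 and 3 in DESeq2, DESeq2 with species only and limma-voom, 1 with the step divided out, 2 without a low-count filter, 10 in batch A only, 3 in batch B only and between 0 and 1 over the fits lacking 1 library. The 2064 genes different between batches became 4444 in DESeq2 and between 0 and 1258 over the fits lacking 1 library, which hold fewer samples, with 0 in 4 of these 6 fits. The cause was not tested.

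With the replicate number as a block, the log2 species difference was -0.29 for CAPN1 and -0.13 for CAST, each with an edgeR adjusted p of 0.994, and for the ratio it was 0.16 (exact sign-flip p = 1, smallest possible 0.25). Correlations of the deviations of libraries with the same number were 0.253, -0.448 and 0.279, and the labels do not say that the numbers pair the samples.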

Other observations

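The spread within each batch was looked at after the levels had been seen. CAST was nearly level over the 3 batch A libraries, at 64.3 to 65.2 CPM, and these values lay within each other's counting intervals. Of 1643 genes with a mean level within 2-fold of CAST, 1 had a smaller SD of log2 CPM in batch A. That closeness held with upper-quartile factors (highest 1.02-fold above lowest) and DESeq2 size factors (1.04-fold), and was lost with library totals, where CAST ran from 55.8 to 69.2 CPM and 11.1% of those genes had a smaller SD. In batch B, where CAST ran from 54.2 to 116 CPM, 84.9% had a smaller SD.

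CAPN1 showed the reverse, with a narrow range in batch B of 100.5 to 110 CPM. Of 1397 genes with a mean level within 2-fold of CAPN1, 4.37% had a smaller SD there, and 1.86% to 3.58% did with the other scalings. In batch A, where Gayal replicate 1 was low, 54.5% had a smaller SD. Each batch holds 3 libraries of both species, and these spreads were not tested.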
